A study of Homo sapiens with 14 samples.

Results

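LTBP1 and the genes that store, release and read TGF-beta were followed across OVCAR-3 cells and sublines resistant to a CDK2 inhibitor. The 9 genes are the latent TGF-beta binding proteins LTBP1, LTBP2, LTBP3 and LTBP4, the ligands TGFB1, TGFB2 and TGFB3, the type II receptor TGFBR2 and the inhibitory SMAD7. They were found by gene symbol in the probe-to-gene table of the array, where each had 1 row, among 18398 genes with a row that names a single gene. LTBP1 was picked because its signal differed between selected and parental arrays, so the member values of that comparison are given as a description without a test. The other 8 were added for their roles around it, with earlier results of these data known.

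The established ovarian carcinoma line OVCAR-3 carries an amplification of CCNE1, the gene of the CDK2 partner cyclin E1. Total RNA was measured on 14 Affymetrix whole-transcript arrays. Parental cells (n = 4) grew in medium without inhibitor. The sublines R1, R3, R5, R6 and R7 were derived separately by growth in PHA-533533, which inhibits CDK2, and withstand it. Each subline gave 1 selected array (n = 5), taken at passage 5 in 4 µM PHA-533533, and 1 stable array (n = 5), taken at passage 10 or later in 0 µM. Inhibitor and passage changed together, so their effects cannot be told apart. Parental cells do not share the selection, and their passage is not given, so passage may differ there too. The labels do not say that the 4 parental replicates came from separate cultures, so p-values against them may measure technical spread. Values are deposited log2 signals. In a bulk culture, fewer cells that make an RNA and less RNA per cell cannot be told apart.

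TGF-beta is secreted in a latent complex, in which the ligand is held by its own propeptide and the propeptide is linked to an LTBP, which anchors the complex in fibronectin and fibrillin matrix. Integrins and proteases release the ligand, which binds TGFBR2. TGFBR2 then recruits the type I receptor and SMAD proteins carry the signal to the nucleus, where SMAD7 is among the induced genes and damps the pathway. In epithelial tumours TGF-beta is known both for growth arrest and for the loss of epithelial traits.

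Upstream sequence is shown for LTBP1 and the ligand TGFB2, the members with the largest mean differences toward lower signal in both resistant groups. RefSeq promoter windows (GRCh38.p14) held 17 starts of the 9 members, 3 of them of LTBP1. LTBP1 starts 1 and 2 lie 187 kb apart, and the single array row of LTBP1 does not tell their transcripts apart. The 250 bases before LTBP1 start 1 (chr2:32946703-32946952, plus strand), before LTBP1 start 2 (chr2:33134119-33134368, plus strand) and before TGFB2 start 1 (chr1:218345086-218345335, plus strand) are printed from 5′ to 3′. Capitals mark a match to the cAMP response element TGACGTCA or to the SMAD-type CAGA box CAGACA.
LTBP1 start 1: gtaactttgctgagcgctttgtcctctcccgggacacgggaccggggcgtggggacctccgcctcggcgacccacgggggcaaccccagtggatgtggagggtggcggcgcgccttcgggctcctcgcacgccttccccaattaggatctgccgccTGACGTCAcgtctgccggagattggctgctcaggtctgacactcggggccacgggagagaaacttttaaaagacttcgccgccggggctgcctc
LTBP1 start 2: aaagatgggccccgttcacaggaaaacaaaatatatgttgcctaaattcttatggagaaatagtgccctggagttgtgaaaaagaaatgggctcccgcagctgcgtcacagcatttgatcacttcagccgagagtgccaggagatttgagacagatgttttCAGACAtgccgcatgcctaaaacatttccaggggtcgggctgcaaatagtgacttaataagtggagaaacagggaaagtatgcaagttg
TGFB2 start 1: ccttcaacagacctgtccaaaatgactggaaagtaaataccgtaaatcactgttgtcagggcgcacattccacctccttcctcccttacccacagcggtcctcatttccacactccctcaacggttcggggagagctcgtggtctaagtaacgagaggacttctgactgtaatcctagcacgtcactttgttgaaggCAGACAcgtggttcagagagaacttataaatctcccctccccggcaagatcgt

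The 2 LTBP1 windows differed in composition, with 66.4% G and C before start 1 and 45.2% before start 2, against a median of 58.0% over all windows. TGACGTCA stood 94 to 87 bases before LTBP1 start 1, in the only member window that held it, and was found in 1.65% of all 35116 windows of 250 bases. CAGACA stood 89 to 84 bases before LTBP1 start 2 and 53 to 48 bases before TGFB2 start 1. In its other orientation, TGTCTG, it occurred before LTBP1 start 3 and LTBP4 start 1, and 13.6% of all windows held it. The AP-1 motif TGANTCA (6.57% of all windows) and the SMAD palindrome GTCTAGAC (0.182%) matched no member window. Both strands were searched, each motif was counted on its own, and a match describes letters, not binding.

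As a gauge of background, the mean of 340 olfactory receptor genes ran from 6.06 to 6.71 per array. Exact two-sided permutation p was 0.595 between selected and parental, 0.651 between stable and parental, and 0.254 between selected and stable arrays. The last of these ignored the pairing by subline. The selected array had the lower mean in every subline, at 6.06, 6.26, 6.50, 6.60 and 6.32 in R1, R3, R5, R6 and R7. Their stable arrays were at 6.18, 6.39, 6.60, 6.63 and 6.70. This shift was not tested with the pairing. The 95th percentile of the olfactory receptor genes' mean signals was 7.76. LTBP1 and TGFB2 lay above every olfactory receptor gene, and LTBP2, LTBP3, LTBP4, TGFBR2 and SMAD7 above all but 1 to 6 of them. TGFB1 (mean 7.52) and TGFB3 (mean 7.38) lay below the percentile, with 26 and 38 olfactory receptor genes brighter, so small differences in these 2 genes sit near background. Of the markers of serous ovarian epithelium 13 of 14, among them PAX8, WT1, EPCAM and MUC16, lay above the percentile and only ESR1 did not. Of the markers of other cells, 2 of 10 fibroblast genes (COL1A1 and COL1A2), 3 of 7 leukocyte genes (CD14, CD68 and NKG7), 1 of 6 endothelial genes (CLDN5) and 0 of 5 mesothelial genes lay above it, while PTPRC, PECAM1, PDGFRA and DCN did not. The summed level of fibroblast markers, as a mean per gene, was 6.57 to 6.85 in the parental group, 6.54 to 6.74 in the selected group and 6.55 to 6.78 in the stable group.

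LTBP1, which covalently binds the TGF-beta propeptide and places the complex in the matrix, gave the clearest separation. Its log2 signal was 11.76, 11.89, 11.70 and 11.74 in parental replicates 1 to 4. In selected R1, R3, R5, R6 and R7 it was 10.88, 10.46, 10.44, 10.44 and 10.58. In stable arrays of the same order it was 10.93, 10.24, 10.23, 10.92 and 10.99. Every resistant array lay below every parental array, and selected and stable arrays overlapped. The group means were 11.77 ± 0.08 (SD, n = 4), 10.56 ± 0.19 (SD, n = 5) and 10.66 ± 0.39 (SD, n = 5). Selected minus parental was -1.21 on the log2 scale (SE 0.10), which leaves 43.1% of the parental signal.

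Over all 10 resistant against all 4 parental arrays, LTBP1 was the only member whose ranges did not overlap. Such a separation was seen toward lower signal in 77 genes, 0.419% of those measured, and toward higher signal in 76, or 0.413%. The gap between the lowest parental and the highest resistant LTBP1 array was 0.711 log2, the widest of the 77. The choice of LTBP1 used 9 of these 14 arrays, so this is a description and supports nothing beyond it.

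**Figure D1:**
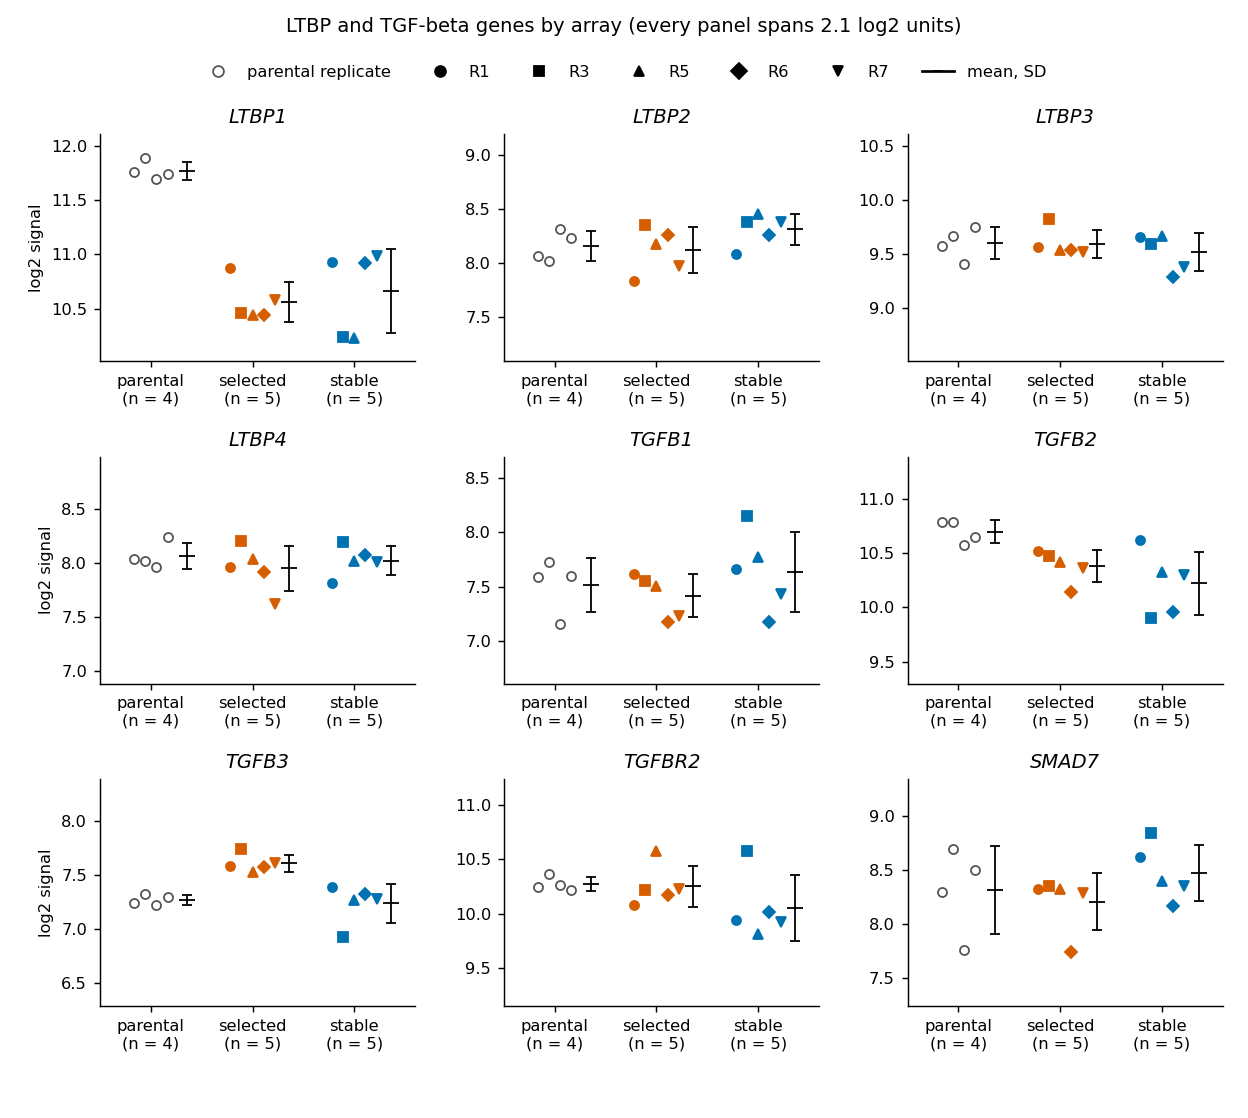
Log2 signal of the 9 genes in every array, with 4 parental, 5 selected and 5 stable arrays from left to right, subline by marker shape and the mean with SD beside each group. Each panel spans the same log2 range; LTBP1 parental arrays lie between 11.70 and 11.89 and all resistant arrays between 10.23 and 10.99, whereas the other 8 genes overlap.

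The other binding proteins gave no such gap. LTBP2, a matrix protein of the family that does not bind latent TGF-beta, spanned 8.02 to 8.31 (parental), 7.83 to 8.35 (selected) and 8.08 to 8.45 (stable). LTBP3, which binds latent TGF-beta and is needed for its secretion, ran from 9.42 to 9.75, 9.52 to 9.83 and 9.29 to 9.67. LTBP4, which prefers TGFB1 and serves elastic fibre assembly, ran from 7.97 to 8.25, 7.63 to 8.20 and 7.82 to 8.20. In each of these 3 genes the groups overlapped, and mean differences between any pair of groups were between -0.19 and 0.15 log2.

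Of the ligands, TGFB2 was the one with lower means in both resistant groups. Its log2 signal was 10.79, 10.79, 10.58 and 10.65 in parental replicates. It was 10.52, 10.48, 10.42, 10.14 and 10.37 in selected R1, R3, R5, R6 and R7, and 10.62, 9.90, 10.33, 9.96 and 10.30 in stable arrays. All selected arrays lay below the parental ones, and among stable arrays only R1 reached into the parental range. The means were 10.70 ± 0.11 (SD, n = 4), 10.38 ± 0.15 (SD, n = 5) and 10.22 ± 0.30 (SD, n = 5), so that selected cells had 80.3% and stable cells 71.7% of the parental TGFB2 signal.

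TGFB3 was higher in selected arrays than in both other groups. Its log2 signal was 7.24, 7.32, 7.22 and 7.29 in parental replicates. It was 7.59, 7.74, 7.52, 7.57 and 7.61 in selected and 7.39, 6.93, 7.27, 7.32 and 7.28 in stable R1, R3, R5, R6 and R7. All 5 selected arrays lay above all others, while stable arrays overlapped parental ones on both sides, with R3 stable the lowest of all 14. The means were 7.27 ± 0.05 (SD, n = 4), 7.61 ± 0.08 (SD, n = 5) and 7.24 ± 0.18 (SD, n = 5).

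TGFB1, the ligand most widely made by tumours, was 7.59, 7.72, 7.15 and 7.60 in parental replicates, 7.62, 7.55, 7.51, 7.17 and 7.23 in selected and 7.66, 8.15, 7.78, 7.17 and 7.43 in stable R1, R3, R5, R6 and R7. The groups overlapped throughout, and R6 was lowest among selected and among stable arrays.

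TGFBR2, the receptor that binds the ligand, ran from 10.22 to 10.36 in parental arrays. Its selected arrays were at 10.08, 10.22, 10.57, 10.17 and 10.23 and its stable arrays at 9.94, 10.58, 9.81, 10.01 and 9.93 in R1, R3, R5, R6 and R7. The highest array was R5 among selected and R3 among stable ones, and the other 4 stable arrays lay below all parental arrays. SMAD7, the inhibitor that blocks the receptor, was 8.30, 8.69, 7.75 and 8.49 in parental replicates, 8.33, 8.35, 8.32, 7.74 and 8.29 in selected and 8.61, 8.84, 8.39, 8.17 and 8.35 in stable arrays. Its parental spread (SD 0.41) was wider than any difference between its group means.

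Cells growing in the inhibitor were first set against the cells they came from. Beside the difference of -1.21 in LTBP1, TGFB3 differed by 0.34 (SE 0.07) and TGFB2 by -0.32 (SE 0.09). The threshold for a call was an adjusted p under 0.05 throughout, and of all genes 6.92% passed it here, 5.03% as higher and 1.89% as lower. No call of a member is given, since LTBP1 was chosen on this contrast. Ranges were apart in LTBP1 and TGFB2 toward lower and in TGFB3 toward higher signal, against 2.96% and 6.81% of all genes. The median difference of the 9 was -0.10, beside -0.01 over all genes.

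Stable cells, grown on without the inhibitor, asked whether a difference was still there at later passages. The comparison shares its parental arrays with the contrast LTBP1 was chosen on. LTBP1 differed by -1.11 in stable from parental cells (SE 0.17, 95% interval -1.49 to -0.74), which leaves 46.2% of the parental signal, and was lower in 5 of 5 arrays. It missed the threshold in limma (adjusted p = 0.0823). TGFB2 differed by -0.48 (SE 0.14, 95% interval -0.78 to -0.18), with adjusted p = 0.468 in limma. None of the 9 passed, though 2, LTBP1 and TGFB2, had an unadjusted p under 0.05. Of all genes 1, or 0.00544%, passed, and 1120 had an unadjusted p under 0.05. Ranges were apart toward lower signal in LTBP1 alone, against 1.42% of all genes, and toward higher signal in none, against 0.826%. The median difference of the 9 was -0.04, beside -0.0038 over all genes.

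The LTBP1 result lay close to the threshold. Its difference stayed between -1.19 and -1.01 over 21 alternatives, and its adjusted p in limma ran from 0.0102 to 0.339, with 5 of 21 passing. Leaving out R1 stable was the one omission of an array that passed (difference -1.18, adjusted p = 0.0326).

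Selected and stable arrays of the same sublines were then compared, which sets growth in the inhibitor at passage 5 against growth without it later. The main fit left out the pairing by subline. With subline as a paired replicate block, adjusted p in limma was 0.0669 for TGFB3 and 0.705 for LTBP1. TGFB3 was 0.37 higher in selected arrays (SE 0.09, 95% interval 0.18 to 0.56) and higher in 5 of 5 sublines, with 0.20, 0.81, 0.25, 0.25 and 0.33 for R1, R3, R5, R6 and R7. It missed the threshold in limma (adjusted p = 0.0576). Without R3 stable, which held the lowest TGFB3 signal, the difference was 0.29. Its ranges were apart, as in 2.83% of all genes toward higher and 1.33% toward lower signal. It passed in 4 of 22 alternatives, among them the fit without R1 stable (difference 0.41, adjusted p = 0.0308). Over the 22 its adjusted p in limma ran from 0.0162 to 0.721.

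LTBP1 differed by -0.10 between selected and stable arrays (SE 0.17, 95% interval -0.47 to 0.26, adjusted p = 0.837 in limma). That comparison shares its selected arrays with the contrast LTBP1 was chosen on. The subline differences did not share a direction, at -0.05, 0.22, 0.21, -0.48 and -0.41 for R1, R3, R5, R6 and R7. None of the 9 members passed, against 2.16% of all genes (1.54% as higher and 0.614% as lower). At an unadjusted p under 0.05 stood 1 member, TGFB3, and 2809 genes. SMAD7 differed by -0.27 (adjusted p = 0.430) and TGFBR2 by 0.20 (adjusted p = 0.568), both in limma.

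**Figure D2:**
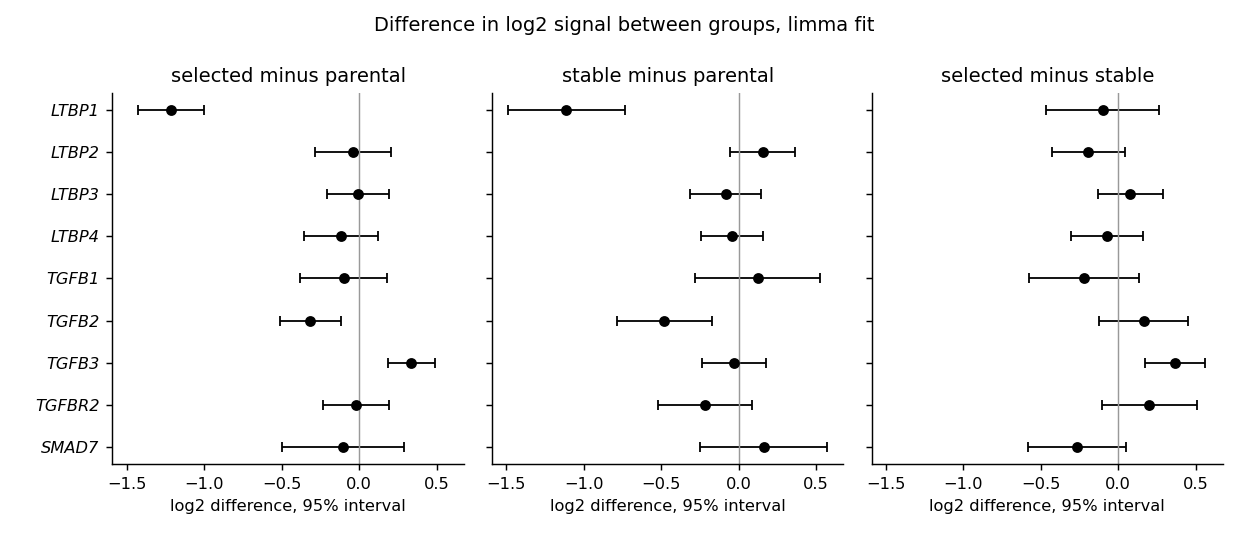
Difference in log2 signal between groups for each of the 9 genes, as the limma estimate (point) with its 95% interval (bar), in selected minus parental, stable minus parental and selected minus stable arrays. LTBP1 lies at -1.21 and -1.11 against parental cells and at -0.10 between the resistant groups, and TGFB3 at 0.34, -0.03 and 0.37. LTBP1 was chosen on selected minus parental, so its interval there is a description and not a test.

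By subline, the mean of both arrays of LTBP1 differed from the parental mean by -0.87, -1.42, -1.44, -1.09 and -0.99 log2 for R1, R3, R5, R6 and R7 (SE 0.15 each). R3 and R5 were lowest and had their lower value in the stable array, whereas R6, R7 and, by a small margin, R1 had it in the selected array. These arrays include those LTBP1 was chosen on, so the values are a description and no call of a member is given. Of all genes 0.196% passed in R3, 0.0598% in R5 and none in R1, R6 and R7.

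TGFB2 lay below the parental mean in all 10 resistant arrays, with subline differences of -0.13, -0.51, -0.33, -0.65 and -0.37 for R1, R3, R5, R6 and R7. R6 was low in both arrays, and R3 differed between its arrays, at 10.48 in the selected and 9.90 in the stable array.

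Differences among the sublines themselves were tested without the parental arrays, over the selected and stable ones. The selected arrays are among those LTBP1 was chosen on. None of the 9 members passed, against 0.12% of all genes (22 genes). At an unadjusted p under 0.05 stood 3 members, LTBP1, TGFB1 and SMAD7, and 15.8% of all genes. Subline means of LTBP1 ranged over 0.57 log2 (adjusted p = 0.302 in limma), of TGFB1 over 0.68 (adjusted p = 0.186) and of SMAD7 over 0.64 (adjusted p = 0.195). From lowest to highest LTBP1 the order was R5, R3, R6, R7, R1, and the adjusted test did not separate these means.

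**Figure D3:**
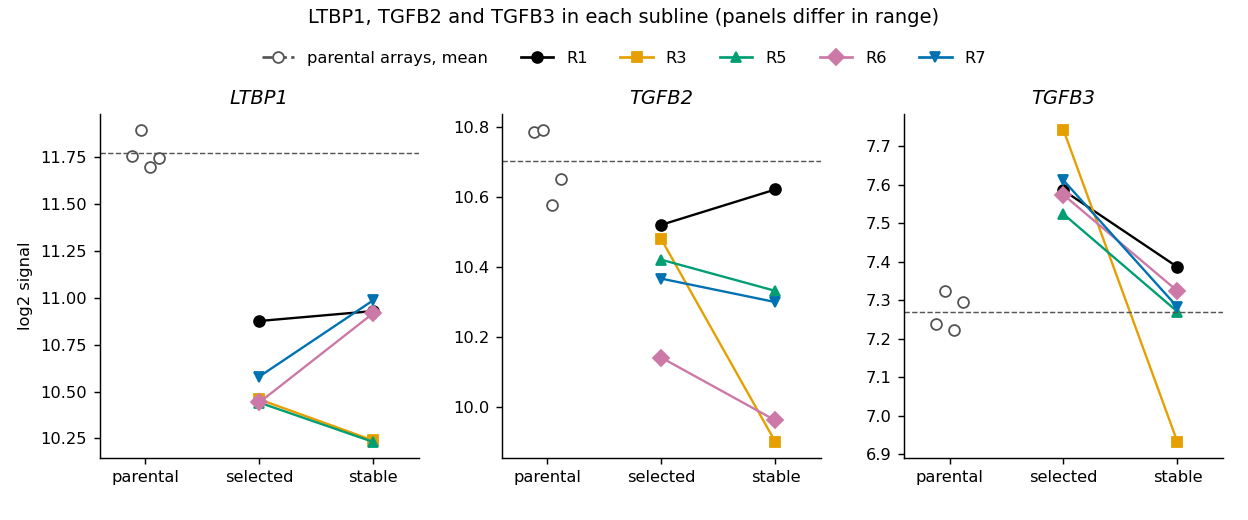
Log2 signal of LTBP1, TGFB2 and TGFB3 in the 4 parental arrays (open circles, dashed line at their mean) and in each subline, whose selected and stable arrays are joined by a line; panels differ in range. LTBP1 goes from 10.44 to 10.92 in R6 and from 10.46 to 10.24 in R3, while TGFB3 is lower in the stable array of all 5 sublines.

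Single arrays stood out over several members. Parental replicate 2 was the highest parental array in 6 and the lowest in 1 of 9 members and had the lowest olfactory receptor mean of the parental arrays, 6.16. Parental replicate 3 was the lowest parental array in 7 of 9 members and had the highest olfactory receptor mean of the parental arrays, 6.71. R3 stable was the highest or lowest stable array in 6 of 9, with TGFB1, TGFBR2, SMAD7 and LTBP4 highest and TGFB2 and TGFB3 lowest. Leaving out each array in turn kept LTBP1 between -1.19 and -1.01 in stable against parental cells. Small differences of other members turned sign in that comparison, SMAD7 from 0.16 to -0.022 without parental replicate 3, and TGFB1 from 0.12 to -0.0063 and TGFB3 from -0.031 to 0.046 without R3 stable.

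TGFB1 and SMAD7 followed each other most closely of the 36 pairs of members, a pair picked after the values were seen. Pearson's r was 0.85 over 14 arrays and 0.81 over the 10 resistant arrays after subtraction of the growth condition means. Both genes were lowest of the selected arrays in R6, lowest of the stable arrays in R6 and lowest of the parental arrays in replicate 3. Parental replicate 3 and R6 selected had the highest olfactory receptor means of their groups, 6.71 and 6.60. R6 stable, at 6.63, was below only R7 stable, at 6.70. TGFB1 also sits near background, and a part of background in this likeness was not tested. TGFB3 and TGFBR2 ran in opposite directions over the 10 resistant arrays after the same subtraction (r = -0.79). Over all 14 arrays, where nothing was subtracted, r was -0.13, so these 2 values differ in more than the arrays used. R3 stable was lowest in TGFB3 and highest in TGFBR2. The arrays share normalization steps that are unknown, and these values are given without a test.

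Genes were ranked by likeness to LTBP1, with symbols of uncharacterised, antisense, small RNA and olfactory receptor genes skipped. Among the rest, those most like LTBP1 over the 14 arrays were SPATA24 (r = 0.95), DBN1, an actin binding protein (0.93), RPS9, a ribosomal protein (0.93), TMEM178A (0.91) and VIT, a matrix protein (0.91). The most opposed were SEL1L3 (-0.92), KLK5, a kallikrein protease (-0.92), and NID2, a basement membrane protein (-0.89). These values hold the step between parental and resistant arrays. Over the 10 resistant arrays, with growth condition means subtracted, the most alike were FBL, a nucleolar methyltransferase (0.94), FGFR3 (0.93), ZNF792 (0.92), HS6ST1, a heparan sulfate sulfotransferase (0.92), and PRPF31, a splicing factor (0.92), and the most opposed KLK5 (-0.92), COMMD4 (-0.91) and NME2 (-0.90). SPATA24 (group means 7.22 to 7.44) and ZNF792 (7.21 to 7.37) lay below the olfactory receptor percentile of 7.76, so their differences sit near background. Among the members TGFB2 was the most like LTBP1 over 14 arrays (0.70), but was at 0.37 over the 10 resistant ones with growth condition means subtracted.

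VIT and TMEM178A lie on chromosome 2 with LTBP1, so the signals along that stretch were looked at, a choice made after the values were seen. In the order of measured genes VIT is 6 places and TMEM178A 29 places past LTBP1. VIT differed from parental cells by -1.76 log2 in selected and -1.72 in stable cells and TMEM178A by -1.35 and -1.26, and both were below every parental array in all 10 resistant ones. The 27 other genes between LTBP1 and TMEM178A had median differences of 0.14 in selected and 0.02 in stable cells, and none lay below all parental arrays in all 10. The 10 genes before LTBP1 had medians of -0.13 and -0.06. QPCT, a glutaminyl cyclase in the same stretch, was higher by 1.22 and 0.74. Chromosome 2 was not the only one shared by genes of the likeness ranking. RPS9, KLK5, FBL, ZNF792 and PRPF31 lie on chromosome 19, whose signals were not looked at in this way. HS6ST1 also lies on chromosome 2.

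**Figure D4:**
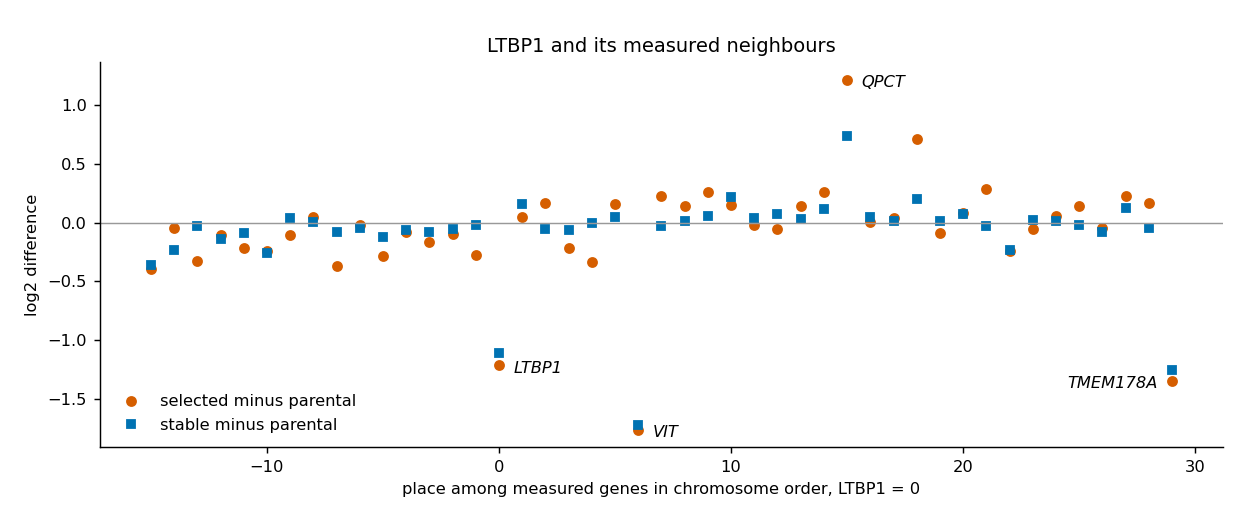
Difference in log2 signal from parental cells (vertical axis) for the measured genes around LTBP1 in chromosome order (horizontal axis, LTBP1 at 0), with circles for selected and squares for stable minus parental. LTBP1, VIT and TMEM178A lie between -1.11 and -1.76 in both comparisons, apart from the genes between them, and QPCT lies above the rest.

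The other genes of the pathway were taken from lists of 8 roles, 155 measured genes in all, each counted once. The lists were chosen with earlier results of these data known, so their shares and p-values are not an independent test. In selected against parental cells 5 of them rose and 7 fell, or 7.74% beside 6.92% of all genes, with a median difference of -0.03. In stable against parental cells 0 of 155 passed in limma and 17, or 11%, had an unadjusted p under 0.05, beside 6.09% of all genes. Between selected and stable cells 1 was higher and 1 lower, or 1.29% beside 2.16% of all genes.

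Matrix partners of the latent complex and their fibrillin relatives held 4 of those 12 genes among 18. FBLN5, an elastic fibre protein, rose by 0.86 (SE 0.11, adjusted p = 0.00209 in limma), with parental arrays at 7.79 to 7.91, selected arrays at 8.45 to 9.09 and stable arrays at 7.66 to 8.31. It was also higher in selected than in stable cells by 0.71 (SE 0.14, adjusted p = 0.0260, and 0.0332 with subline as a paired replicate block). FBLN5 was called against parental cells in 21 of 21 alternatives. Counts of alternatives here and elsewhere leave out a required log2 difference of at least 1, which FBLN5 did not reach. Its call against stable cells held in 16 of 23 and was lost without selected R3, R5 or R7, without stable R5 or R7, and without both R7 arrays (adjusted p = 0.159). It was also lost with the replicate block and the olfactory receptor mean together (adjusted p = 0.686). Of all genes 0 were called in that fit, and 0 without both R7 arrays. TGM2, which cross-links LTBP1 to the matrix, fell by 0.38 (adjusted p = 0.0131), and MFAP2, a microfibril protein, fell by 0.58 (adjusted p = 0.0391). TGM2 held its call in 19 of 21 alternatives and lost it in 1 fit of all 14 arrays, with a random replicate block (adjusted p = 0.0963) and without one (adjusted p = 0.0998).

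EFEMP1, a fibulin, fell by 0.89 (SE 0.23, adjusted p = 0.0389 in limma) in selected cells. Its signal was 7.92 to 8.24 in parental replicates and 8.15 in selected R1, but 6.78 to 7.18 in the other selected arrays. In stable cells it was below all parental arrays, at 6.34 to 7.39, with a difference of -1.36 (SE 0.19) that missed the threshold (adjusted p = 0.0738). MFAP2 was called in 14 of 21 and EFEMP1 in 10 of 20 alternatives, and both lost the call without selected R5, R6 or R7 and without most single parental replicates.

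Among 20 genes of latent TGF-beta activation, PLAU, the urokinase that generates plasmin, rose by 1.07 (SE 0.19, adjusted p = 0.00732 in limma), from 9.35 to 9.86 in parental to 10.24 to 11.17 in selected arrays. ITGB3, a chain of an integrin that binds latent TGF-beta, was lower in selected than in stable cells (difference -1.13, SE 0.23, adjusted p = 0.0307, and 0.0089 with the replicate block). Selected arrays of ITGB3 lay at 9.19 to 9.82, stable ones at 9.90 to 11.16 and parental ones at 9.73 to 10.86. This call was lost without both R7 arrays (adjusted p = 0.166) and with the replicate block and the olfactory receptor mean together (adjusted p = 0.535). It held in 13 of 23 alternatives, while PLAU held in 20 of 21. THBS1, a secreted activator, differed by 0.47 in selected and 0.74 in stable cells and passed in neither (adjusted p = 0.351 and 0.697).

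In the 9 binders and traps of the ligand CD109, a TGF-beta co-receptor that promotes receptor turnover, rose by 0.64 (adjusted p = 0.0286 in limma). None of 13 other receptors passed in any of the 3 comparisons. At an unadjusted p under 0.05 stood 2 in selected against parental cells (15.4%, beside 20.3% of all genes), 1 in stable against parental cells (7.69%, beside 6.09%) and 2 between selected and stable cells (15.4%, beside 15.3%). TGFBR3, the betaglycan co-receptor, differed by -0.40 in stable from parental cells (adjusted p = 0.195). Of 25 SMAD proteins and regulators PPM1A, a phosphatase of activated SMADs, rose by 0.37 (adjusted p = 0.0380). Of 32 target genes NEDD9, a scaffold of focal adhesions, fell by 0.62 (adjusted p = 0.0216) and PDGFB, a growth factor, fell by 0.37 (adjusted p = 0.0448). The target list had a median difference of -0.04 in selected and -0.01 in stable cells.

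Of 28 other ligands of the superfamily, GDF15, a stress-induced cytokine, rose by 0.93 (SE 0.24, adjusted p = 0.0381 in limma), and its selected R5 array (8.73) lay within the parental range of 8.48 to 8.97. Of 14 extracellular antagonists, FSTL3, which binds activins, fell by 0.38 (adjusted p = 0.0225) and GREM1, which binds BMPs, fell by 0.49 (adjusted p = 0.0360). GREM1 was at 11.58 in R3 stable and at 7.19 to 8.38 in the other stable arrays. CD109, PPM1A, NEDD9, PDGFB, GDF15, FSTL3 and GREM1 held their calls in 9 to 17 of 21 alternatives, and all 7 lost them without selected R7 and without parental replicate 4.

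**Figure D5:**
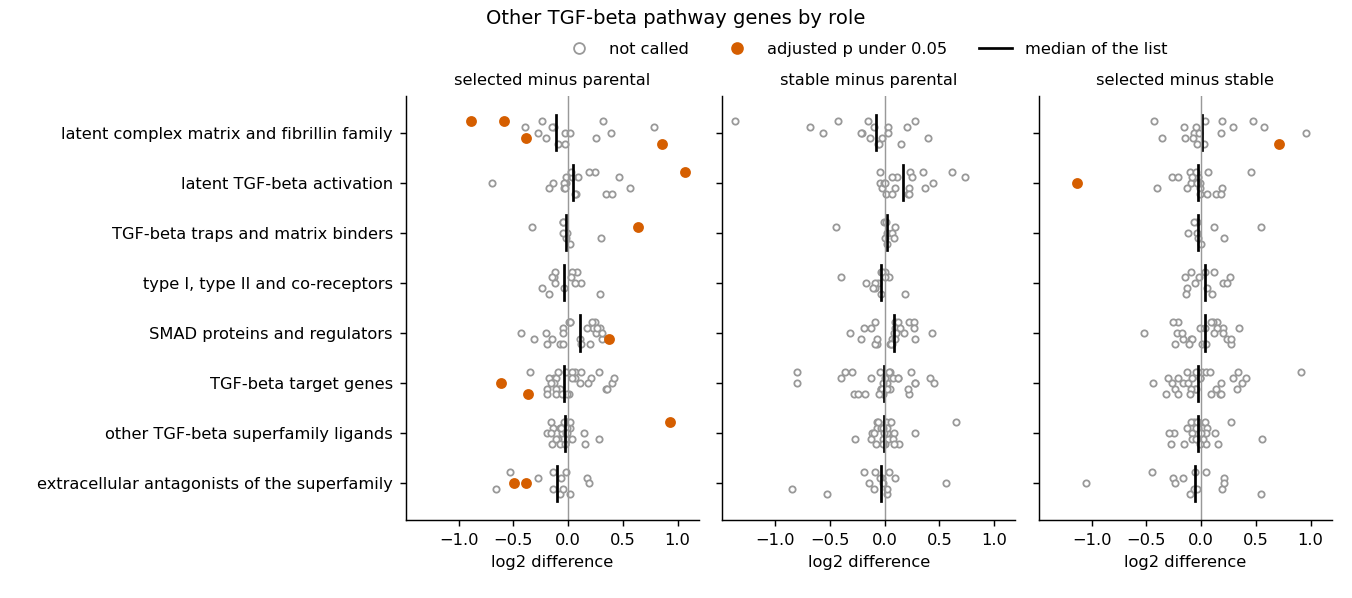
Difference in log2 signal (horizontal axis) of the other TGF-beta pathway genes, in rows by role and panels by comparison, with filled points for an adjusted p under 0.05 and a black bar at the median of the list. Each gene has 1 point in every list that holds it, so a few genes appear in more than 1 row. Filled points number 12 in selected minus parental (FBLN5, PLAU, CD109, PPM1A and GDF15 higher, 7 lower), 0 in stable minus parental and 2 in selected minus stable.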

How the data were processed

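The deposited values, 1 number per array row and 14 arrays, are used as log2 signal. Base 2 was taken from their range, 4.34 to 14.9, and how the authors corrected background, normalized and summarised them is not given in the sources used here. Of 32295 rows 19148 name 1 gene, 1376 several and 11771 none, and for the 633 genes with more rows the brightest was kept, which left 18398 genes. A RefSeq table (GRCh38.p14) gave current symbols. Samples were grouped by their labels and tested two-sided with limma 3.58.1 (lmFit, eBayes; R 4.3.3). P-values were adjusted over all 18398 genes (Benjamini-Hochberg) with a threshold of 0.05. Each comparison used its own arrays, each subline against parental all 14 as 6 groups, and the difference between sublines an F test over 10 arrays with growth condition. The fits were tested on simulated data.

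The labels pair selected and stable arrays by subline. Across genes, paired deviations from the group means correlated at 0.636, 0.050, 0.371, 0.546 and -0.468 for R1, R3, R5, R6 and R7. The members and lists were chosen with earlier results of these data known. Named were all members, of each list the called genes (up to 4 a comparison, or up to 2 by smallest p), and the 5 most and 3 least like LTBP1. That ranking skipped symbols of uncharacterised, antisense, small RNA and olfactory receptor genes. A few listed genes were not analysed here. The number of arrays limits the precision. Alternatives are in the closing section.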

Additional observations from a re-analysis of the deposited data

Results flagged for a closer look

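An array was set apart where its gap to the next one took up most of its group's range (Dixon's test at 95%). Of 228 groups, 3 for each of 76 genes, 8 were so marked, and chance marks about 1 in 20. LTBP3 was at 9.83 in R3 selected, against 9.52 to 9.57 in the other selected arrays. TGFB3 was at 6.93 in R3 stable, against 7.27 to 7.39 in the other stable arrays. TGFBR2 was at 10.58 in R3 stable, against 9.81 to 10.01. SMAD7 was at 7.74 in R6 selected, against 8.29 to 8.35. The SMAD repressor TGIF1 was at 11.57 in R7 selected, against 11.24 to 11.33. GREM1 was at 11.58 in R3 stable, against 7.19 to 8.38. The epithelial cadherin CDH1 was at 10.58 in R5 selected, against 10.99 to 11.08. SPATA24 was at 7.17 in R5 stable, against 7.26 to 7.30. The causes were not tested.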

How the results depend on the processing

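Selected against parental cells are a description, and there LTBP1 ran from -1.29 to -1.17 and TGFB3 from 0.30 to 0.36 over the alternatives. A required log2 difference of at least 1 changed which members passed, and no call of a member is given here. The counts of alternatives given for single genes leave that setting out. Of the pathway genes called against parental cells only PLAU, at 1.07, reached it, and the others lost their calls. A filter on genes under the 40th percentile of mean signal dropped TGFB1 and TGFB3.

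In stable against parental cells LTBP1 passed in limma with array weights (-1.11, adjusted p = 0.0102, 2 members with TGFB2), with 1 fit of all 14 arrays (-1.11, adjusted p = 0.0196, 1 member), with olfactory receptor signal as a covariate (-1.10, adjusted p = 0.0477, 1 member) and with a random replicate block (-1.11, adjusted p = 0.0188, 1 member). Leaving out single arrays gave 0 to 1 members and -1.19 to -1.01 for LTBP1. Uncalled differences near 0 changed sign: TGFB1 (-0.032) and SMAD7 (-0.010) with array weights, and over single arrays SMAD7 from -0.022 to 0.29, LTBP4 from -0.086 to 0.017, TGFB1 from -0.0063 to 0.24 and TGFB3 from -0.068 to 0.046.

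In selected against stable cells 1 member, TGFB3, passed with quantile normalization, array weights and 1 fit of all arrays (adjusted p 0.0345, 0.0162 and 0.0204), and 0 to 1 when single arrays were left out. The paired replicate block gave TGFB3 an adjusted p of 0.0669 and changed no member's call. With the olfactory receptor mean added to that block, TGFB3 was at 0.35 (adjusted p = 0.721 in limma), in a fit that called 0 of all genes. LTBP3 was at -0.0033 with quantile normalization. LTBP4 was at 0.0055 without subline R7, from -0.14 to 0.0086 over single arrays, and at 0.095 with the replicate block and the olfactory receptor mean, where LTBP1 was at 0.0053. For sublines against parental cells, also a description, 1 to 5 values of members were past the threshold when single arrays were left out, and nothing is read from them.

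Counts over all genes moved more. For selected against parental 517 to 1343 were called over single arrays and 44 to 2318 otherwise, for stable against parental 1 to 26 and 1 to 286, for selected against stable 86 to 962 and 0 to 1480 (906 with the replicate block), and between sublines 0 to 410 and 0 to 26. The causes were not tested.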
